A study of Carya illinoinensis with 18 samples.

Results

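The clade II pair of pecan (*Carya illinoinensis*) consists of 2 duplicated genes for calcineurin B-like (CBL) proteins, *CiPaw.05G196600* and *CiPaw.11G119600*. They are listed in the expression table as CIL1253S0012 and CIL1002S0071, and both rows were taken by these identifiers from a table of 31074 genes. Both genes were more than 8-fold lower in leaves after 15 d of drought than before it. On the days between, their ratio varied between libraries. Exact permutation tests of the ratio against 0 d could not give a p below 0.1, or 0.2 at 3 d. The 3 d test left out replicate 3, where CIL1002S0071 was listed at 0. With so few libraries, these tests cannot decide whether the ratio differed from 0 d. Below, CIL1253S0012 is called the abundant copy and CIL1002S0071 the scarce copy, after their levels before drought. By their CiPaw names they lie on chromosomes 5 and 11, and start and end positions were not analysed here. The table itself carries no CiPaw names. They were attached to these rows in earlier work on the same table, by matching day means to a published heatmap, so the day means cannot serve as a check of the names.

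CBL proteins bind calcium through EF-hand motifs and have no enzymatic activity of their own. They pass a calcium signal on by binding protein kinases of the CIPK family, whose NAF domain is their docking site. In *Arabidopsis*, CBL and CIPK pairs are known for their part in the handling of sodium and potassium and in responses to drought and abscisic acid. The authors placed both genes in one clade of the family and listed them as a segmental duplicate. They also described an N-terminal myristoylation site, a signal for attachment to membranes, in the protein of *CiPaw.05G196600*.

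The study followed leaves of grafted seedlings during a drought of 15 d. The scion of every plant was the cultivar Pawnee on rootstocks raised from seed, and leaves were sampled before drought (0 d) and every 3 d up to 15 d after the last watering. Each of these 6 days has 3 RNA-Seq libraries, 18 in total, and each library was made from leaves of 3 or more plants. The 0 d libraries are labelled as untreated and are the only control, so days of drought and days in the chamber cannot be told apart. In whole leaves, fewer cells that express a gene and less transcript per cell cannot be told apart either. The identifiers come without gene names, so markers of leaf cell types were not analysed here.

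The qRT-PCR primers that the authors designed for the abundant copy are shown because they define which of the 2 copies was also assayed by PCR. They are given from 5′ to 3′ as listed in the study's supplementary table, where no primers were found under the name of the scarce copy.
CiPaw.05G196600 forward: gggctgctatcactcaaaga
CiPaw.05G196600 reverse: catgtaaggcctccacttca
Both primers have 20 bases and a GC content of 50%.

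Expression is given as the FPKM that the authors deposited, a measure in which fragments are divided by transcript length and by the mapped fragments of each library. Summed over all genes, a library held 545598 to 587063 FPKM. The number of reads is not part of the table, but relative depth could be estimated from the steps between low values, and the shallowest library had 0.728 of the depth of the deepest. Some libraries stood apart from others of their day in the number of genes listed at 0. Of the 17399 genes with a mean of at least 2 FPKM at 0 d, 166 were listed at 0 in 6 d replicate 3, 247 in 9 d replicate 1 and 229 in 12 d replicate 3, against 14 to 79 in the other libraries of these days. In the 15 d libraries 124 to 271 were listed at 0. Tests against 0 d that rest on the named libraries of 6, 9 and 12 d are given with and without them. Correlation of log2(FPKM + 1) would set another library apart at 12 d. There replicate 2 had r of 0.862 and 0.919 with the others, which had 0.960 between them. At 3 d replicate 2 had 0.879 and 0.893, against 0.950 between the others. On their days, 9 d replicate 1 and 12 d replicate 3 were most like the mean of 15 d (r of 0.933 and 0.967).

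The abundant copy fell from 6 d on. It had 37.41, 67.58 and 43.11 FPKM in the 3 libraries of 0 d, which placed its mean above 93.4% of all genes in the table. At 3 d it had 22.72, 55.08 and 29.06 FPKM, and 2 of these libraries were below every 0 d library while replicate 2 was within the 0 d range. At 6 d it had 26.66, 17.13 and 20.06 FPKM, with every library below every library of 0 d. This holds at 6 d for 14.6% of the 24443 genes tested, and it was so for the abundant copy on each later day, as for 17.1% of the genes at 9 d, 20.5% by 12 d and 43.4% by 15 d.

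On the log2 scale, the largest drop of its mean between neighbouring days came next. By 9 d the abundant copy had 9.24, 9.10 and 6.28 FPKM. It had 9.59, 9.04 and 4.98 FPKM in the libraries of 12 d, and the last libraries (15 d) had 4.38, 6.54 and 6.85 FPKM. The values of 9 d and 12 d overlapped, and so did those of 12 d and 15 d. Its mean was 49.4 ± 16 FPKM before drought, 8.21 ± 1.67 after 9 d and 5.92 ± 1.35 after 15 d (SD, n = 3), when it was still above 63.7% of all genes. On the log2 scale of the means, 39.7% of the difference between 0 d and 15 d had been reached by 6 d and 84.6% by 9 d.

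The scarce copy had its lowest single value at 3 d and did not fall in step with time. It had 2.66, 3.36 and 2.72 FPKM at 0 d, a mean above 48.1% of all genes. At 3 d it had 1.63 and 0.44 FPKM in replicates 1 and 2 and was listed at 0 in replicate 3. Every library of 3 d was thus below every library of 0 d, as for 7.18% of the genes tested. At 6 d it had 2.43, 1.87 and 0.83 FPKM, and replicates 1 and 2 were above every library of 3 d.

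After 6 d the libraries of the scarce copy differed most at 12 d. It had 0.54, 0.70 and 1.08 FPKM at 9 d and 1.45, 1.59 and 0.19 at 12 d. At 15 d its values were close together, at 0.35, 0.26 and 0.36 FPKM, with a mean above 32.9% of all genes. In 12 d replicate 3 the scarce copy was below all 3 libraries of 15 d. Its libraries too were below every 0 d library on each day after 0 d. The coefficient of variation between its libraries was lowest before drought (13.3%) and at the end (17%), and it was 122% for 3 d, where 1 library was listed at 0, 47.5% for 6 d, 35.9% for 9 d and 71.6% for 12 d. For the abundant copy it ranged from 20.3% at 9 d to 48.1% at 3 d.

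**Figure D1:**
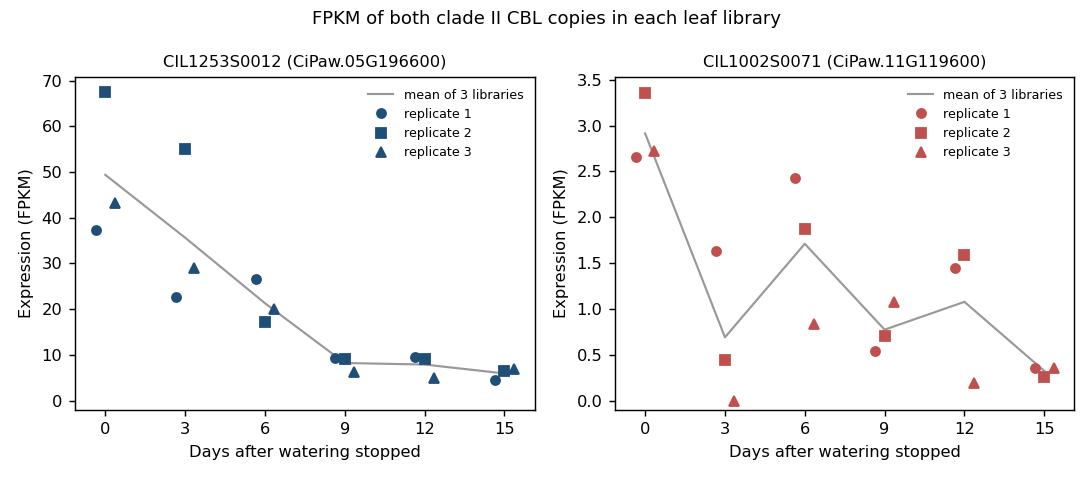
FPKM (vertical axes, linear, of different range) of the abundant copy CIL1253S0012 and the scarce copy CIL1002S0071 against days after the last watering, with one point per library and a line through the means of 3 libraries. The abundant copy drops from 37.41 to 67.58 FPKM at 0 d to 6.28 to 9.24 at 9 d and is between 4.38 and 9.59 at 12 d and 15 d, whereas the scarce copy spreads from 0 to 1.63 FPKM at 3 d and from 0.19 to 1.59 at 12 d.

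The step of a single fragment was estimated from the values of the scarce copy. With the relative depths, the value of 1 fragment was estimated as 0.0636 FPKM in the deepest library, 0 d replicate 1, and 0.0873 FPKM in the shallowest, 3 d replicate 2. The step was chosen so that the libraries of at most 15 fragments lay close to whole numbers, so their closeness is no check of it. These 9 libraries came out within 0.06 of a whole number of fragments, and all 17 libraries above 0 within 0.16. The step is an estimate, and smaller steps that divide it would give whole numbers as well. On this estimate 42, 39 and 34 fragments stand behind the values of 0 d, 21, 5 and 0 behind those of 3 d and 31, 25 and 12 behind those of 6 d. At 9 d there were 7, 9 and 14 fragments, at 12 d 21, 25 and 3, and at 15 d 5, 4 and 5.

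These numbers show where counting error could cover the differences between libraries of a day. At 15 d the 3 libraries together held 14 fragments (exact Poisson 95% interval 7.65 to 23.5), against 115 at 0 d (94.9 to 138). These intervals cover counting error only. At 3 d the interval of replicate 3 ended at 0.277 FPKM, and 3 fragments would amount to 0.225 FPKM there. The interval of replicate 1 on that day began at 1.01 FPKM. At 6 d the interval of replicate 3 ended at 1.45 FPKM and that of replicate 1 began at 1.65, and at 12 d that of replicate 3 ended at 0.564 and that of replicate 2 began at 1.03. Thus the lowest and the highest library were separate at 3, 6 and 12 d, and the intervals of all libraries overlapped at 0, 9 and 15 d. The lowest values of 6, 9 and 12 d were those of the libraries in which more of the 17399 genes were listed at 0, as given above, whereas in 3 d replicate 3 only 21 were, against 83 in replicate 2. The part of these library differences in the values of the scarce copy was not tested.

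**Figure D2:**
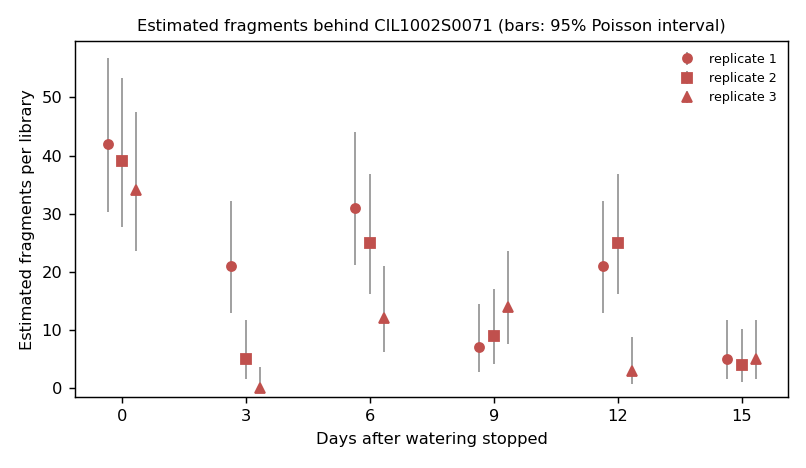
Estimated number of fragments of the scarce copy CIL1002S0071 in each library (vertical axis, linear) against days after the last watering, with exact Poisson 95% intervals as bars. Libraries of 0 d rest on 34 to 42 fragments and those of 15 d on 4 to 5, and at 3, 6 and 12 d the lowest and highest libraries have separate intervals once scaled to FPKM.

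Each later day was compared with 0 d by limma on log2(FPKM + 1), and p-values were adjusted by Benjamini-Hochberg over all 24443 genes. Genes with an adjusted p under 0.05 are referred to as called. At 3 d neither copy passed. limma called 6 genes of the table as lower at 3 d (0.0245%), and 803 genes (3.29%) were lower at an unadjusted p under 0.05. The scarce copy had a log2 fold change of -1.32 at 3 d (standard error 0.35, unadjusted p = 0.00181, adjusted p = 0.274 from limma), which was lower than that of all but 1.28% of the genes. The abundant copy had -0.51 (standard error 0.32, adjusted p = 0.589 from limma).

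At 6 d the abundant copy was called as lower and the scarce copy was not, where 2.90% of the genes were called as lower. The log2 fold change was -1.15 for the abundant copy (adjusted p = 0.03 from limma) and -0.57 for the scarce copy (adjusted p = 0.295). Without 6 d replicate 3 the scarce copy had -0.31 (adjusted p = 0.648). Whether the 2 copies differed at 6 d was tested on their ratio, as described below. The call of the abundant copy at 6 d was lost without 0 d replicate 2 (adjusted p = 0.134), 0 d replicate 3 (0.05), 6 d replicate 2 (0.121) or 6 d replicate 3 (0.0737). Without 6 d replicate 3, 9 d replicate 1 and 12 d replicate 3 together, it had an adjusted p of 0.0528 from limma. Over all alternatives the adjusted p ranged from 0.0118 to 0.134.

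From 9 d on limma called both copies as lower on every day. At 9 d 7.55% of the genes were called as lower, at 12 d 13.3% and at 15 d 34.0%. The log2 fold change of the abundant copy was -2.42 by 9 d, with an adjusted p of 0.000333. It was -2.50 in the libraries of 12 d, where the adjusted p was 0.000203, and -2.84 in those of 15 d, with a standard error of 0.32 and an adjusted p of 1.40e-05 from limma. At 9 d only 1.35% of the genes had a lower value, and 5.19% did at 15 d. These 3 calls held in each of the 18 fits that left out 1 library.

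The calls of the scarce copy before 15 d were less firm. Its log2 fold change by 9 d was -1.15, with an adjusted p of 0.0291 from limma. It was -0.99 in the libraries of 12 d, where the adjusted p was 0.0427, and -1.56 in those of 15 d, with a standard error of 0.35 and an adjusted p of 0.00158. At 9 d the call was lost without 9 d replicate 1 (adjusted p = 0.0978), 9 d replicate 2 (0.0583) or any of the 0 d libraries (0.0535 to 0.0924). Without 6 d replicate 3, 9 d replicate 1 and 12 d replicate 3 together it held (-1.05, adjusted p = 0.0394 from limma). At 12 d the log2 fold change was -0.63 without 12 d replicate 3 (adjusted p = 0.202). The call of 12 d was also lost without 12 d replicate 1 (adjusted p = 0.0590), 6 d replicate 2 (0.0530), 9 d replicate 2 (0.0508), any 0 d library (0.0730 to 0.119) or any 15 d library (0.0538 to 0.0550). Over all alternatives, the adjusted p ranged from 0.0151 to 0.132 at 9 d and from 0.0235 to 0.202 at 12 d. The call at 15 d held in each of the 18 fits, with adjusted p from 0.000628 to 0.00774.

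No step between neighbouring days was called for either copy. From 6 d to 9 d the abundant copy changed by -1.27 on the log2 scale (standard error 0.32, unadjusted p = 0.00146, adjusted p = 0.480 from limma). For that step limma called 0 of all genes as lower (0%), and 926 (3.79%) were lower at an unadjusted p under 0.05. From 3 d to 6 d the scarce copy had a higher level by 0.75 on the log2 scale (unadjusted p = 0.0483, adjusted p = 0.261 from limma), a step in which 4.34% of the genes were called as higher and 0.671% as lower. From 9 d to 12 d no gene was called as lower (0%, and 1.13% at an unadjusted p under 0.05), and from 12 d to 15 d 15.2% were. Over all days, the moderated F-test of limma called the abundant copy (adjusted p = 4.71e-05) and the scarce copy (adjusted p = 0.0134), as it did 57.8% of the genes. Over all genes, log2 fold changes at 15 d had a median of -0.24, and median-ratio scaling of the libraries moved it to -0.03. With this scaling the log2 fold change at 15 d was -2.53 for the abundant copy and -1.47 for the scarce copy, and both remained called as lower.

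The size of the fall relative to the starting level depended on the scale. On log2(FPKM + 1) the scarce copy fell less than the abundant one, since a pseudocount of 1 FPKM is larger than its values at 15 d. Without a pseudocount, the mean of 0 d was 8.33 times that of 15 d for the abundant copy and 9.01 times for the scarce copy. On log2(FPKM), the change at 15 d was -3.04 for the abundant copy (standard error 0.33, n = 3) and -3.18 for the scarce copy (standard error 0.18, n = 3). The 0.18 rests on 3 close values that together hold 14 estimated fragments at 15 d. Their counting interval of 7.65 to 23.5 is wider, so 0.18 understates the error. At 9 d the changes on log2(FPKM) were -2.56 (standard error 0.32) and -1.97 (standard error 0.31), and at 12 d -2.66 (standard error 0.40) and -1.93 (standard error 1.01).

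**Figure D3:**
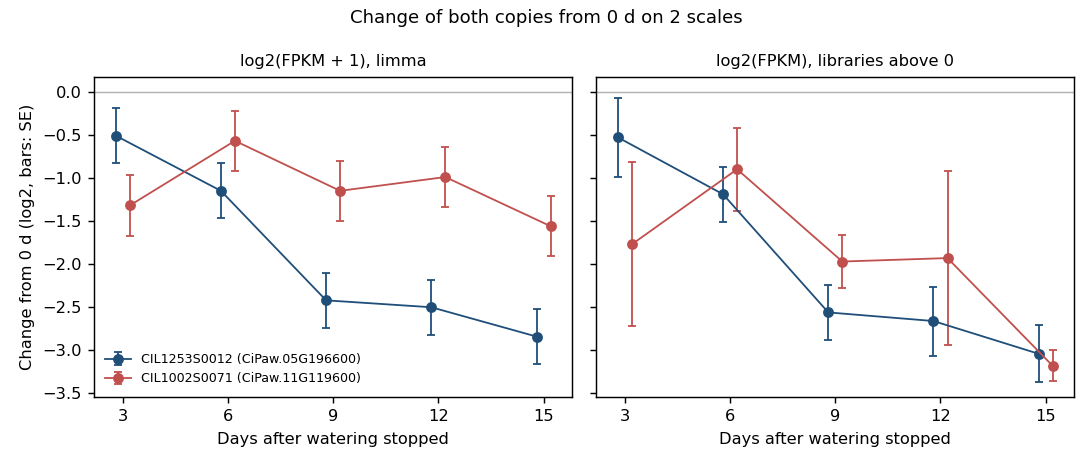
Change of the abundant copy CIL1253S0012 and the scarce copy CIL1002S0071 from 0 d (vertical axis, log2 difference with standard errors as bars) against days after the last watering, on log2(FPKM + 1) from limma on the left and on log2(FPKM) over libraries above 0 on the right. At 15 d the copies lie at -2.84 and -1.56 on the left and at -3.04 and -3.18 on the right. On the right, the bar of the scarce copy at 15 d understates the error, since its values rest on 14 estimated fragments.

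The ratio of the copies, abundant over scarce, was computed within each library without a pseudocount. It was 14.1, 20.1 and 15.8 at 0 d, a geometric mean of 16.5. At 3 d it was 13.9 in replicate 1 and 125 in replicate 2, and in replicate 3, where the scarce copy was listed at 0, the abundant copy was at least 129-fold higher against a floor of 3 fragments in this library. At the upper end of the two-sided 95% interval of the scarce copy it would be 105-fold higher. Replicate 1 of 3 d was thus close to the libraries of 0 d. The value or bound of the other 2 was above every other ratio. In 3 d replicate 2, counting error of the scarce copy alone allowed a ratio of 54 to 388. In 12 d replicate 3 it allowed 8.83 to 125, which overlaps that range and includes the 105 of 3 d replicate 3.

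At later days most ratios were near or below those of 0 d. They were 11, 9.16 and 24.2 at 6 d, 17.1, 13.0 and 5.81 at 9 d and 6.61, 5.69 and 26.2 at 12 d. At 15 d they were 12.5, 25.2 and 19.0, a geometric mean of 18.2, and the values of 15 d enclosed those of 0 d. The smallest ratios of the series, 5.69 to 6.61, came from 9 d replicate 3 and from 12 d replicates 1 and 2. On 6, 9 and 12 d the highest ratio came from the library with the most genes listed at 0 on that day. Counting error of the scarce copy alone allowed a ratio of 8.83 to 125 in 12 d replicate 3, against 3.85 to 8.78 in 12 d replicate 2.

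Without a pseudocount, each difference of the log2 ratio from 0 d was smaller in size than the SD between libraries of the later day. The SD of 0 d was 0.26, and only the difference at 15 d was smaller than that. The difference from 0 d was 0.14 at 15 d (standard error 0.33, exact permutation p = 0.8, n = 3 against 3), and the differences between single libraries of both days ranged from -0.68 to 0.84. This standard error too rests on the close values of the scarce copy at 15 d, so the error may be larger. The difference was -0.29 at 6 d (standard error 0.46, exact permutation p = 0.5), -0.60 at 9 d (standard error 0.49, exact permutation p = 0.3) and -0.73 at 12 d (standard error 0.72, exact permutation p = 0.4). At 3 d it was 1.34 over the 2 libraries with a ratio (standard error 1.59, exact permutation p = 0.8), and -0.24 without 3 d replicate 2. Single libraries moved these differences by more than 1.5 times. At 6 d the difference was -0.72 without 6 d replicate 3 and ranged up to -0.02, without 6 d replicate 2. At 9 d it was -0.92 without 9 d replicate 1 and ranged up to -0.14, without 9 d replicate 3. At 12 d it was -1.43 without 12 d replicate 3 and ranged up to -0.32, without 12 d replicate 2. At 15 d it ranged from -0.10 without 15 d replicate 2 to 0.41 without 15 d replicate 1. With 2 against 3 libraries the exact permutation p cannot go below 0.2. It was 0.2 at 6 d without 6 d replicate 3, at 9 d without 9 d replicate 1 and at 12 d without 12 d replicate 3. In each of these the remaining ratios were below every ratio of 0 d. Each of them left out the highest ratio of its day. A pseudocount turned the sign at 15 d, to -0.18 with 0.1 FPKM (exact permutation p = 0.6) and -1.28 with 1 FPKM (exact permutation p = 0.1). With 1 FPKM the difference was -1.27 at 9 d and -1.51 at 12 d (exact permutation p = 0.1 for each, the smallest possible). A pseudocount lowers the ratio even where both copies fall alike, since it weighs more on the scarce copy. Without a pseudocount and after adjustment over the 5 days every p was 0.8. These two-sided tests cannot go below 0.1 with 3 against 3 libraries or below 0.2 at 3 d, so they could not have passed 0.05. Equal falls of both copies are not shown by them.

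**Figure D4:**
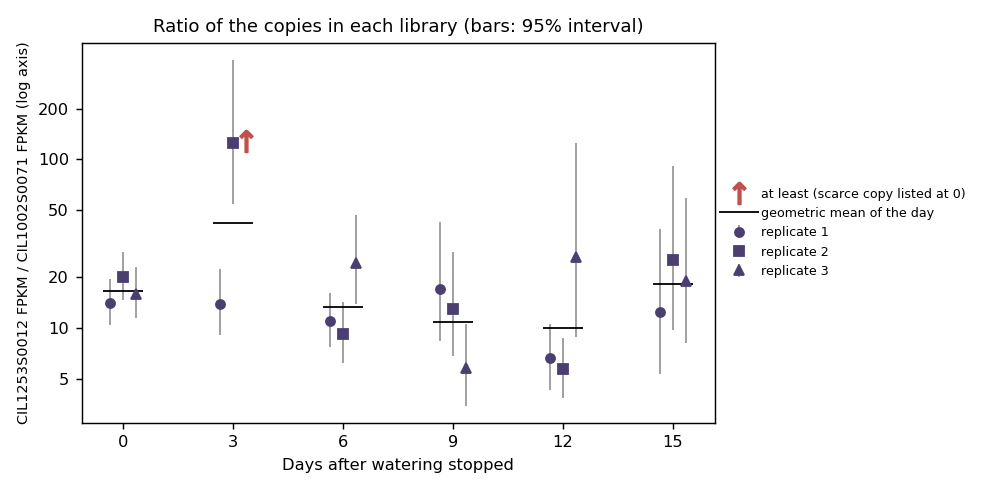
Ratio of the FPKM of the abundant copy to that of the scarce copy in each library (vertical axis, log scale) against days after the last watering, with short lines for the geometric mean of each day and bars for the exact Poisson 95% interval of the scarce copy alone. The arrow marks 3 d replicate 3, where the scarce copy was listed at 0 and the ratio was at least 129 against a floor of 3 fragments (105 at the end of the 95% interval), and the means of 0 d and 15 d are 16.5 and 18.2.

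Across the 17 libraries with a ratio, the log2 ratio had no detectable trend with day (Pearson r of -0.222, permutation p = 0.409, and Spearman rho of -0.128, permutation p = 0.621). Without the 0 d and 15 d libraries, which are tied as the farthest from the median day, r was -0.519 over 11 libraries (permutation p = 0.0953). Without the 3 d libraries it was -0.0733 (permutation p = 0.793). When 1 FPKM was added to both copies before the ratio was taken, r was -0.724 (permutation p = 0.0005), and with 0.1 FPKM it was -0.381 (permutation p = 0.12). Both of these cover all 18 libraries, with the one where the scarce copy was listed at 0. Over the same 17 libraries as without a pseudocount, r was -0.727 with 1 FPKM (permutation p = 0.00043) and -0.340 with 0.1 FPKM (permutation p = 0.185). The scarce copy was below 1 FPKM in every 15 d library. Adding 1 FPKM therefore lowers the ratio of late days even where both copies fall alike, and these r values cannot show a trend of the ratio.

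The levels of both copies were correlated over the 18 libraries on log2(FPKM + 1), with a Pearson r of 0.548 (permutation p = 0.0205) and a Spearman rho of 0.569 (permutation p = 0.0156). Adjusted over the 5 correlation tests of the pair, both had p = 0.0512. The libraries farthest from the median of the abundant copy were replicate 2 of 0 d and replicate 2 of 3 d, without which r was 0.605 (permutation p = 0.0158). Without 0 d replicate 2 alone it was 0.444 (permutation p = 0.0769). Since libraries of one day have the same length of drought in common, r was also taken on deviations from the day means, where it was 0.141 (exact permutation within days, p = 0.744). It was 0.568 without 3 d replicate 1 (exact permutation p = 0.080) and -0.151 without 12 d replicate 3 (exact permutation p = 0.819). At 3 d, the order of the libraries differed between the copies, with the abundant copy highest in replicate 2 and the scarce copy highest in replicate 1.

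Many genes followed each copy more closely than its duplicate did. How far the few fragments behind the scarce copy lower its correlations was not tested. As a description over the 18 libraries, 14.8% of the genes tested had a higher Pearson correlation with the scarce copy than the abundant copy had, and 27.8% had a higher one with the abundant copy than the scarce copy had. The gene most like the abundant copy was CIL1502S0064 (r of 0.933), with a mean of 20.4 FPKM at 0 d and 0.223 at 15 d. The gene most like the scarce copy was CIL0902S0104 (r of 0.898), with 29.6 and 0.203 FPKM. The most opposite genes were CIL0967S0176 for the abundant copy (r of -0.934, 40.8 and 88.1 FPKM) and CIL1171S0035 for the scarce copy (r of -0.868, 15.5 and 21.6 FPKM). An r of at least 0.8 was found for 1084 genes with the abundant copy and for 99 genes with the scarce copy, and after quantile normalization for 659 and 28 genes.

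The genes that share the identifier prefix of each copy were also described, although what the prefix stands for is not given in the sources used here. Of 70 tested genes that share the prefix of the scarce copy, 24 were called as lower at 15 d (34.3%) and 16 as higher, with a median log2 fold change of -0.18. Of 32 that share the prefix of the abundant copy, 16 were called as lower (50%) and 7 as higher, with a median of -0.55. Over all genes 34.0% were called as lower and 22.1% as higher, with a median of -0.24. Of the 32 genes, 3 had a lower log2 fold change than the abundant copy, against 5.19% of all genes. Of the 70 genes, 9 had a lower one than the scarce copy, against 16% of all genes.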

How the data were processed

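The authors sequenced poly(A)-enriched cDNA libraries on an Illumina NovaSeq, estimated expression with RSEM and deposited 1 table of FPKM values with 2 decimals. The labels also name fastp 0.18.0, Bowtie2 2.2.8, HISAT2 and StringTie 1.3.1, and the genome build and annotation are not given in the sources used here. Reads that fit more than 1 gene are divided among these by RSEM, and whether reads aligned to both copies was not tested. Columns were matched to libraries by title, and 0 were left aside. None of the identifiers matched the RefSeq gene table (0 of 31074), so no other CBL or CIPK gene was analysed here.

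From the deposited FPKM, log2(FPKM + 1) of the 24443 genes with a mean of at least 0.1 FPKM was fitted by day in R 4.3.3, using limma 3.58.1 and its eBayes step with a trend, and tested on simulated data. Tests are two-sided. Relative depth came from the low values of 2966 genes that were above 0 in only some libraries. Each pair of libraries rested on a median of 34 genes, and 100% of 153 pairs lay within 0.05 (log2) of the fit. Correlations used 100000 permutations. Other steps ran under Python 3.11.15 (scipy 1.17.1, pandas 2.3.3, numpy 2.4.6, matplotlib 3.10.9). The alternatives were another pseudocount, scaling, filter or variance trend, a replicate block and leaving out each library. The named genes are the pair and, for each copy, the most and the least correlated gene. The pair and the tests were chosen with earlier results of these data known.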

Additional observations from a re-analysis of the deposited data

How the results depend on the processing

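At 15 d both copies were called as lower under each of the 26 alternatives, with adjusted p from 8.13e-06 to 0.000157 for the abundant copy and from 0.000484 to 0.0104 for the scarce copy from limma. The calls of the scarce copy at 9 d and 12 d were lost with a pseudocount of 0.1 FPKM (log2 fold changes of -1.83 and -1.72, adjusted p = 0.132 and 0.135). With each library left out, they ranged from -1.27 to -1.05 at 9 d and from -1.19 to -0.63 at 12 d, and the change of the abundant copy at 6 d ranged from -1.33 to -0.91. An alternative chosen after seeing the data left out the 3 libraries that stood apart by genes listed at 0. Without them the scarce copy had -0.63 at 12 d (adjusted p = 0.160) and the abundant copy -1.12 at 6 d (adjusted p = 0.0528). The call of the scarce copy at 9 d held (-1.05, adjusted p = 0.0394 from limma). Those of the abundant copy at 9 d (-2.51) and 12 d (-2.24) held as well. The number of genes called as lower at 3 d was 0 with a pseudocount of 0.1 FPKM, 17 after quantile normalization, 12 after median-ratio scaling, 2 with a filter at 1 FPKM and 20 without those 3 libraries. It was 1414 and 1340 at 6 d after quantile normalization and median-ratio scaling, and at 9 d 2933 after median-ratio scaling and 866 without those libraries. With each library left out it ranged from 0 to 75 at 3 d, from 270 to 1135 at 6 d, from 595 to 2556 at 9 d and from 1335 to 4906 at 12 d. The 1335 came without 12 d replicate 3 and the 4906 without 12 d replicate 2. The causes were not tested. The difference of the log2 ratio at 3 d was -0.24 without 3 d replicate 2, the lowest of a range up to 2.92. The relation of the ratio to day was -0.724 with a pseudocount of 1 FPKM, and -0.727 over the 17 libraries with a ratio, a setting chosen after seeing the data. The correlation of both copies was 0.423 with a pseudocount of 0.1 FPKM (permutation p = 0.0819) and ranged from 0.444 to 0.690 with each library left out.

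The replicate numbers did not pair the libraries. Libraries of one number on different days had correlations of their deviations from -0.585 to 0.587, and 5 of 18 correlated best with their own number. A replicate block left each call of both copies as it was, with -2.84 and -1.56 at 15 d, and gave a difference of the log2 ratio of 0.14 at 15 d. After quantile normalization, the genes named as most like or most opposite to each copy kept the sign of r, from 0.827 to 0.898 and from -0.900 to -0.647, but others ranked first. The scarce copy rests on few fragments at 15 d, which limits any statement on its level or ratio there.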
